A study of Mus musculus with 2 samples.

Results

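The Hox genes encode homeodomain transcription factors that lie in 4 clusters, Hoxa, Hoxb, Hoxc and Hoxd, and they were followed here by cluster and by paralogue number in mesothelial and liver cells of the mouse embryo. Members were the genes whose symbol is Hox, a cluster letter and a number from 1 to 13, measured by a probe set annotated with that symbol alone. Membership follows the symbol, and the family was selected on its differences between the 2 arrays, which are therefore described and not tested. This gave 33 Hox genes of 18194 genes measured, read by 48 probe sets. Both groups were wild-type C57Bl6 embryos at E12.5. Mesothelial cells, the flat epithelium on the organ's surface, were sorted by FACS for the surface protein podoplanin (Pdpn) after trypsin-EDTA digestion of the liver. The other group is labelled liver cells, with no word on whether cells carrying Pdpn had been taken out and no number of embryos for either group. One free-text label speaks of a far earlier stage, which conflicts with E12.5, and E12.5 was taken as the age. Each group had 1 array, so nothing was tested and every value describes those 2 arrays.

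Within each cluster the genes stand in the order of their numbers. Low-numbered genes at one end are active early and far forward along the body axis, and high-numbered genes at the other end are active later and further back, a rule called collinearity. Genes of the same number in different clusters are paralogues that arose when an ancestral cluster was duplicated. In the trunk, this combination of active genes marks the axial level of a mesodermal tissue, and blood progenitors use some of the same genes, Hoxa9 among them.

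The label check came first. Pdpn, the sort marker, was 38.8-fold brighter in mesothelial cells, and of 12 mesothelial markers 11 met the intensity floor and each was at least 2-fold brighter in mesothelial cells, among them Wt1, a transcription factor of coelomic epithelia, at 1994 against 102.0. The hepatocyte gene Alb was bright on both arrays, at 15683 against 12832. The floor is the median intensity of all probe sets, 65.8 on the mesothelial array and 42.3 on the liver array, and a gene met it where the higher of its values reached the floor of that array. The highest of 27 bacterial control probe sets, which were assumed to have no matching RNA in the samples, read 16.2 and 10.5. This is called the control level. Differences are mesothelial minus liver, on the log2 scale of intensity, and values written as one against another give the mesothelial array first. Their median over all genes was 0.66, and differences are also given against that all-gene median. Where the dimmer value was at or below the control level, the fold was taken against that level and is written as at least N-fold.

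Paralogue groups 2 to 8 and 9 to 13 were set as spans after the values were seen. Of the 17 Hox genes of groups 2 to 8, 16 read brighter in mesothelial cells, all but Hoxb7. As deposited the all-gene median was 0.66, so most genes of any kind read brighter there. The count of 16 held after each array was centred on its median probe set, where the all-gene median was 0.03. None of the 14 genes of groups 9 to 13 met the floor, where 65.4% of all genes did. The floor was met by 14 of the 33 Hox genes, and each of the 14 was at least 2-fold brighter in mesothelial cells, as were 45.8% of all genes that met it. None was at least 2-fold brighter in liver cells, where 3.86% of all genes were. At a 4-fold threshold 12 of the 14 passed, where 16.1% of all genes above the floor did. All 14 met the floor through the mesothelial array, where they are high, and 6 of them also reached the floor on the liver array. Those 6, Hoxa3, Hoxa5, Hoxb3, Hoxb4, Hoxc4 and Hoxc8, were all at least 2-fold brighter in mesothelial cells, where 39.6% of all genes above the liver floor were. Over all 33 members, with no floor, 18 differed at least 2-fold toward mesothelial cells, where 36.2% of all genes did, and the median difference was 1.41 (0.75 against the all-gene median). After each array was centred on its median probe set, 13 Hox genes and 23.9% of the genes that met the floor were at least 2-fold brighter in mesothelial cells. The members were proposed with these values known, so the counts are a description. In these bulk samples fewer cells of a type and less RNA per cell cannot be told apart.

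**Figure D1:**
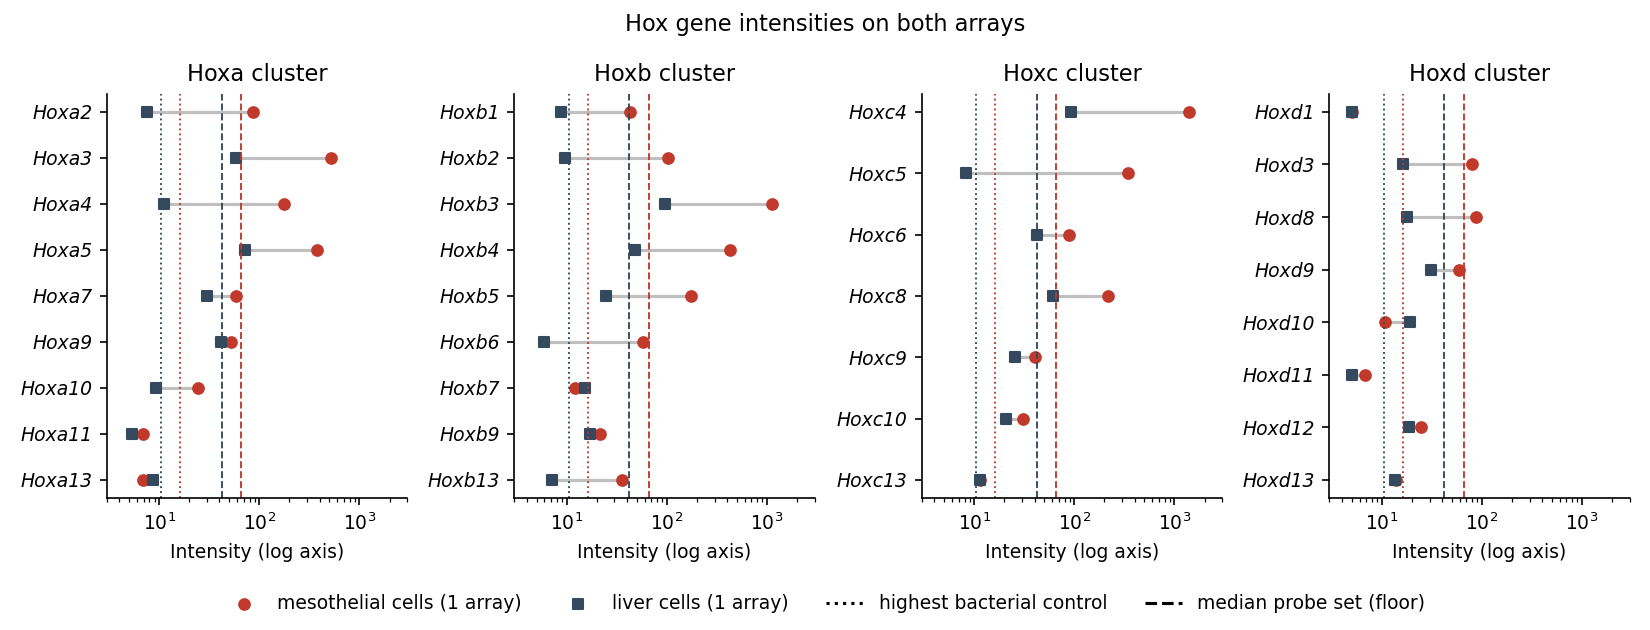
Intensity (log axis) of each Hox gene on the mesothelial array (circles) and the liver array (squares), by cluster, with the control level of each array dotted and its floor dashed in the array's colour. Low-numbered genes of the Hoxa, Hoxb and Hoxc clusters show the widest gaps, such as Hoxc4 at 1405.5 and 92.6, while Hoxa11 and Hoxd11 lie at control level on both arrays.

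The upstream sequences of 4 members are shown because each had, in its cluster, the largest difference among members above the floor that have an entry in the RefSeq promoter table, and because they let a reader compare the start regions of genes that differed in the same direction. Each is the 250 bases before the annotated start, from RefSeq for GRCm38.p6, read 5′ to 3′ on the gene's strand. They lie at chr6:52164832-52165081 on the minus strand for Hoxa2 and, on the plus strand, at chr11:96318017-96318266 for Hoxb4, chr15:103034145-103034394 for Hoxc4 and chr2:74711743-74711992 for Hoxd3. Capitals mark AGGTCA, the half-site bound by nuclear receptors including those for retinoic acid, or TGATNNAT, a composite site of Hox proteins with their partner Pbx, on either strand.
Hoxa2: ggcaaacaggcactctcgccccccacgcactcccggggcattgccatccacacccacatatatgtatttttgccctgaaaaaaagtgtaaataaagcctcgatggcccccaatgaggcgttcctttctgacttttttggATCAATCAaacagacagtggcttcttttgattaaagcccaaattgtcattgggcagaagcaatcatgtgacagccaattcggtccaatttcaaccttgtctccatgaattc
Hoxb4: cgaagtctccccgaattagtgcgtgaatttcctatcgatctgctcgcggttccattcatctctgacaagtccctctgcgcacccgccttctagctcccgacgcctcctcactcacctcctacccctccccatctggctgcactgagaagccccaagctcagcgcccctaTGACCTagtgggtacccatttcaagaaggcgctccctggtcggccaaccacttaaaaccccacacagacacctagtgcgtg
Hoxc4: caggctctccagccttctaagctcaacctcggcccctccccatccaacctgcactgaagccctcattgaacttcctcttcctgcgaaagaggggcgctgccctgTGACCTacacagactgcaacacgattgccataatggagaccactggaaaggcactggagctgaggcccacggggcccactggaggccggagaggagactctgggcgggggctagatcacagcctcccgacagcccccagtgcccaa
Hoxd3: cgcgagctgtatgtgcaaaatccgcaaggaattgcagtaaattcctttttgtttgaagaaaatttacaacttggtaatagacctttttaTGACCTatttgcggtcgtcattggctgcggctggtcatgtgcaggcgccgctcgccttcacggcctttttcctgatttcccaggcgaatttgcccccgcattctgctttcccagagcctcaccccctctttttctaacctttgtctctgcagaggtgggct
The capitals read as AGGTCA on the opposite strand in Hoxb4, Hoxc4 and Hoxd3, ending 75, 140 and 155 bases before the start, and as TGATNNAT on the opposite strand in Hoxa2, ending 103 bases before it. RefSeq entries were matched by symbol for 19 of the 33 members, 7 of them above the floor. AGGTCA was present upstream of 4 of those 7 genes (Hoxb4, Hoxc4, Hoxd3 and Hoxd8), of 1 of the 12 under the floor (Hoxd10), and of 14.0% of 32851 promoters of the same length. TGATNNAT was present for 1 of 7 and 2 of 12, and in 7.7% of all promoters. TTTATG, a core bound by Cdx proteins, was present for 1 of 7 and 2 of 12 and in 10.8%, and in Hoxd3 it overlaps the AGGTCA match. The TATA box, TATAAA, was present for 0 of 7 and 2 of 12 and in 12.4%. The 21 upstream sequences of the 19 genes held 2 to 35 CG dinucleotides with a median of 13, against a median of 6 over all promoters, and the 7 sequences of genes above the floor had a median of 12. A match says only that the letters are present.

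In the Hoxa cluster the genes numbered 2 to 5 were above the floor. Hoxa2, which patterns the hindbrain and branchial arches, read 85.9 against 7.5, so it was at control level in liver and at least 8.18-fold brighter in mesothelial cells. Hoxa3, a gene of pharyngeal organ development, read 520.5 against 58.9, 8.84-fold. Hoxa4 read 175.5 against 11.3, 15.5-fold, with the liver value just over the control level. Hoxa5, needed for lung development, read 381.4 against 72.8, 5.24-fold. Hoxa7 read 59.1 against 29.8, under the floor, a difference of 0.99. Hoxa9, a driver of blood progenitor growth, read 51.7 against 41.6, a difference of 0.31 that lay 0.35 under the all-gene median. These values sit beside 13 measured blood progenitor markers. Of the 10 that met the floor, 3 were at least 2-fold brighter in mesothelial cells, where 45.8% of all genes were, and none in liver cells. The 3 were Slamf1 at 989.9 against 123.3, SD 1.01 over 3 probe sets, Ptprc at 137.0 against 59.7 and Hlf at 220.8 against 109.5. The summed intensity of the 13 was 9653 against 6600, where that of all genes was 12423310 against 7539085. Flt3 was at control level on the mesothelial array. The part of these markers' cells in the Hoxa9 and Hoxa7 values was not tested. Hoxa10, a gene of the posterior trunk and reproductive tract, read 24.5 against 9.2, at least 2.33-fold, by a probe set whose name marks possible cross-hybridisation, while its other probe set was below the control level on both arrays, at 8.3 against 9.0. Hoxa11 and Hoxa13, genes of distal limb and urogenital patterning, were at control level on both arrays, at 6.9 against 5.4 and 6.9 against 8.6.

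The Hoxb cluster had the highest cluster median, 2.83 over 9 genes (2.17 against the all-gene median). Hoxb1, a gene of hindbrain segmentation, read 43.1 against 8.7, under the floor but at least 4.10-fold brighter in mesothelial cells. Hoxb2 read 102.1 against 9.7, at least 9.72-fold. Hoxb3 read 1117 against 96.8, 11.5-fold, and it stood well over the floor on both arrays. Hoxb4, used to expand blood stem cells, read 428.8 against 48.0, 8.93-fold. Hoxb5 read 175.0 against 24.6, 7.11-fold, and Hoxb6 read 57.9 against 6.0, at least 5.51-fold though under the floor. The run of large differences was thus unbroken from Hoxb1 to Hoxb6. It stopped at Hoxb7, which read 12.0, below the control level of the mesothelial array, against 15.1 in liver cells. That is its own probe set, and another, annotated to both Hoxb8 and Hoxb7 and left out by the rule, read 20.5 against 5.1. Hoxb9 read 21.5 against 17.0. Hoxb13, a gene of the tail bud and prostate at the far end of the cluster, stood apart from its neighbours at 35.5 against 7.1, under the floor and at least 3.38-fold brighter in mesothelial cells, from 1 probe set.

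The Hoxc cluster held both the widest and the narrowest computed differences of the members above the floor. Hoxc4, its lowest-numbered gene, read 1405.5 against 92.6, 15.2-fold. Hoxc5 read 340.7 against 8.2, at control level in liver cells and at least 32.4-fold brighter in mesothelial cells. Hoxc6, a gene of thoracic patterning, read 87.6 against 42.2, only 2.08-fold, a difference larger than that of 56.7% of genes above the floor. Hoxc8, also thoracic, read 217.5 against 61.4, 3.54-fold. Hoxc9 and Hoxc10 were under the floor, at 40.4 against 25.8 and 30.7 against 20.8, and their differences of 0.65 and 0.56 lay close to the all-gene median. Hoxc13, a gene of hair and nail, read 11.4 against 11.5, below the control level of the mesothelial array and just over that of the liver array. The cluster median over 7 genes was 1.05 (0.39 against the all-gene median). It was 0.42 after centring on the median probe set, 0.39 after quantile normalization or centring on reference genes, and 0.65 with the median over probe sets.

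The Hoxd cluster had the fewest members over the floor, with 2 of 8 genes above the floor and a median of 0.40 (-0.26 against the all-gene median). Hoxd3 read 80.1 against 16.3, 4.91-fold, and Hoxd8 read 87.4 against 18.0, 4.86-fold. These 2 genes stood clear of the rest of their cluster. Hoxd9 read 59.1 against 30.9, just under the floor with a difference of 0.94. Hoxd1 was at control level on both arrays, at 5.0 against 5.1, although it is the lowest-numbered gene of the cluster. Hoxd10 read dimmer in mesothelial cells, at 10.7 against 19.2, below the control level in mesothelial cells and at least 1.19-fold brighter in liver cells. Hoxd11 and Hoxd13, which pattern the distal limb and genital bud, read 6.8 against 5.1 and 13.8 against 13.5, and Hoxd12 read 24.7 against 18.9. The median of the cluster turned to -0.24 after centring on the median probe set and to -0.26 after centring on reference genes, so it has no settled sign.

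**Figure D2:**
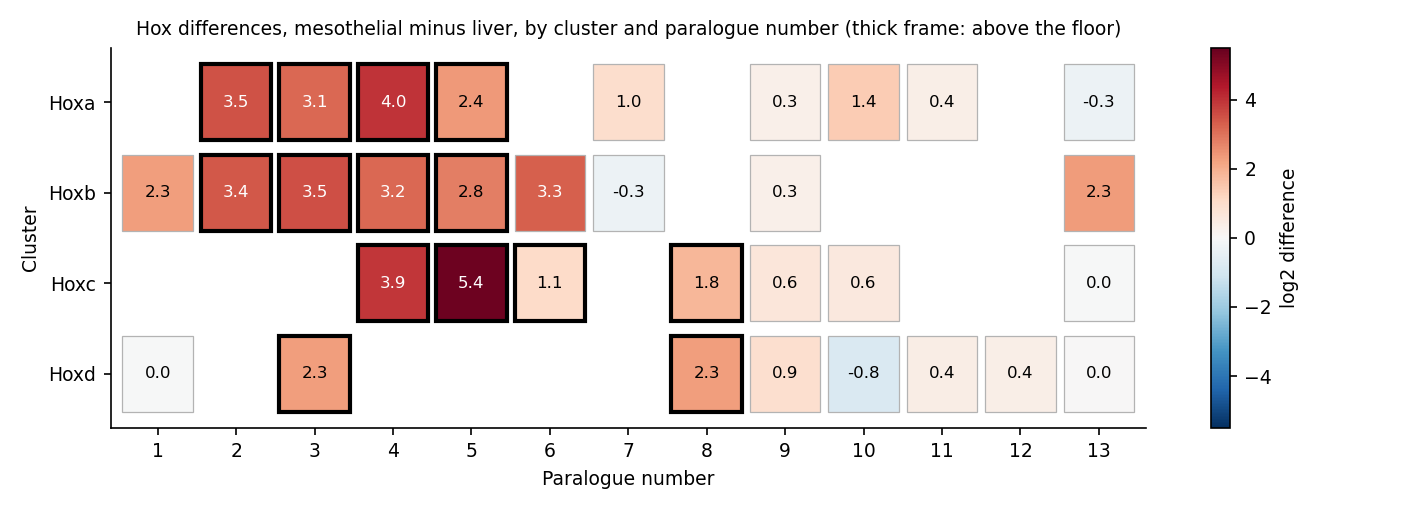
Log2 difference (mesothelial minus liver, printed and coloured) of each Hox gene by cluster (rows) and paralogue number (columns), with thick frames for genes above the floor and blanks where no gene was analysed. The framed genes lie between columns 2 and 8, and no gene from column 9 on is framed.

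Read across clusters, the differences were large in groups 2 to 5, mixed in groups 6 to 8 and small from group 9 on. The median difference was 3.46 over the 2 genes of group 2, 3.14 over the 3 of group 3, 3.92 over the 3 of group 4 and 2.83 over the 3 of group 5. By the probe set used, every analysed gene of groups 2 to 5 was above the floor and at least 4-fold brighter in mesothelial cells. Other probe sets of Hoxa3, Hoxb4 and Hoxc5 gave less than 4-fold. Hoxd4 is not among these genes, since its probe sets also name Hoxd3. Groups 6 and 8 had medians of 2.16 and 2.05 over 2 genes each. Group 7 broke the run, with a median of 0.33 from Hoxa7 and Hoxb7, the probe set shared by Hoxb8 and Hoxb7 being left out. The 4 genes of group 9 all read above the control level on both arrays, at 21.5 to 59.1 in mesothelial cells and 17.0 to 41.6 in liver cells, and differed by 0.31 to 0.94. Group 10 had a median of 0.56 over 3 genes, group 11 of 0.38 over 2 and group 13 of 0.01 over 4, the last with Hoxb13 as the member that stood apart. Group 1 was split, with Hoxb1 above the control level and Hoxd1 not.

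The spans were drawn after the values were seen. Groups 2 to 8 had 14 of 17 genes above the floor and a median difference of 3.14 (2.48 against the all-gene median), with 16 of 17 brighter in mesothelial cells by any amount. Groups 9 to 13 had 0 of 14 genes above the floor, where 65.4% of all genes were, and a median of 0.37 (-0.29 against the all-gene median). In groups 9 to 13, 11 of 14 genes read brighter in mesothelial cells as deposited, where the all-gene median was 0.66. After median centring, where it was 0.03, 4 of 14 did. The direction of groups 9 to 13 thus depends on the scaling. Groups 2 to 8 kept 16 of 17 under median centring, reference gene centring and quantile normalization. Spearman's rho between paralogue number and difference was -0.63 over all 33 genes. It was -0.78 over the 31 genes of groups 2 and up. Both include members at or below the control level, whose differences have no firm order. These are descriptions across genes that share the same 2 arrays. Intensities of different probe sets were not ranked against each other, since probe sets differ in brightness.

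**Figure D3:**
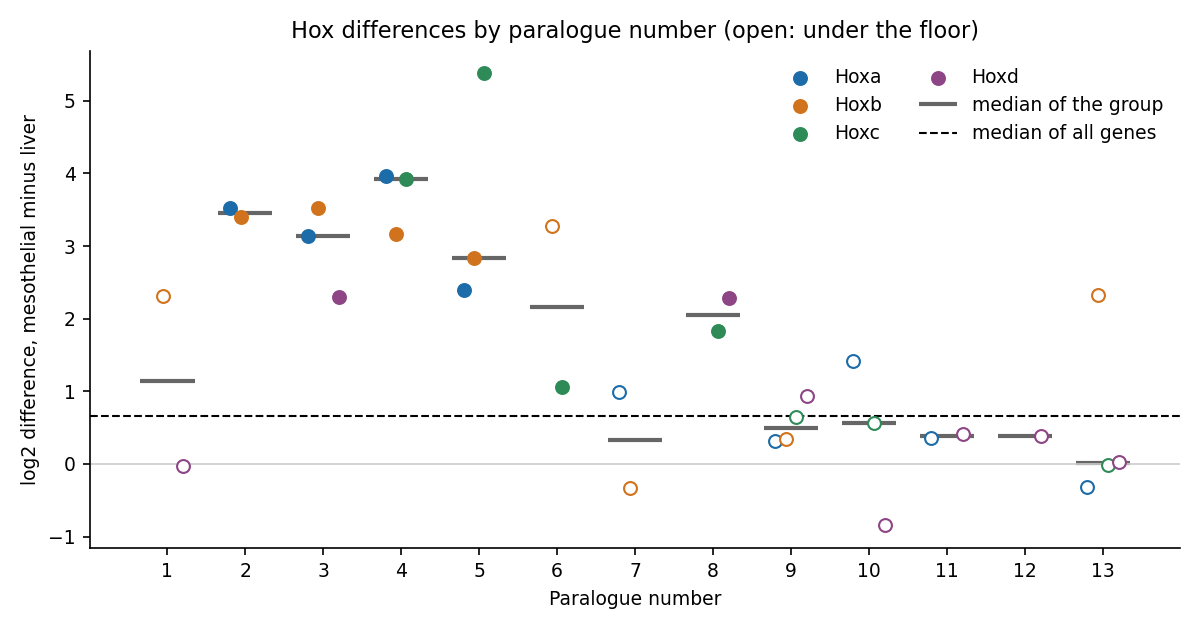
Log2 difference of each Hox gene (points, coloured by cluster, open where under the floor) against paralogue number, with the median of each group as a grey bar and the median of all genes, 0.66, dashed. The points of groups 2 to 5 lie between 2.30 and 5.38, and those of groups 9 to 13 lie near or under the dashed line except Hoxa10, Hoxd9 and Hoxb13.

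On the mesothelial array 25 of 33 Hox genes read above the control level, and on the liver array 22 did. Of all 18194 genes, 15068 did on the mesothelial array and 15828 on the liver array, a larger share on both. Of the Hox genes, 7 were above it in mesothelial cells and not in liver cells: Hoxa2, Hoxa10, Hoxb1, Hoxb2, Hoxb6, Hoxb13 and Hoxc5. The reverse held for 4 genes, Hoxb7, Hoxc13, Hoxd10 and Hoxd13, which read 10.7 to 19.2 over both arrays. A further 4 were at or below it on both, namely Hoxa11, Hoxa13, Hoxd1 and Hoxd11. How many of all genes fall in each of these sets was not counted, so the sets are only listed. The genes just under the floor were Hoxa7 and Hoxd9, both at 59.1 in mesothelial cells, and the gene just above was Hoxd3 at 80.1.

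For 11 Hox genes several probe sets were present, and they did not always read alike. Pooled over 5222 genes, the SD of differences among a gene's probe sets above the floor was 0.70. It holds no variation between embryos, sorts or arrays. Of the 11 genes, 6 had a larger SD, but theirs was taken over all probe sets of a gene, those under the floor included. The comparison is therefore not like for like. The 3 probe sets of Hoxc5 differed by 5.38, 3.28 and 0.39 (SD 2.51), so its fold depends on the probe set. The 4 probe sets of Hoxa3 ran from -0.21 to 3.14 (SD 1.39), and the brightest, used here, has a name that marks possible cross-hybridisation; without it the difference was 1.91. Hoxb4 gave 3.16 and 0.93 (SD 1.57), and Hoxb3 gave 3.53 and 2.06 (SD 1.04). Hoxa4 gave 3.96 and 2.92, Hoxa5 2.39 and 3.25, and Hoxd8 2.28 and 1.68. Every probe set of those 3 genes and of Hoxb3 was thus more than 2-fold brighter in mesothelial cells. Hoxc6 gave 1.05, 0.41 and 0.23, so only the brightest of its 3 probe sets passed 2-fold. Hoxa10 gave 1.41 and -0.12 (SD 1.08), the latter from values below the control level. With the median over probe sets, 12 Hox genes passed. Hoxc6 then differed by 0.41, short of 2-fold, whereas Hoxd8 still differed by 1.98 and was under the floor.

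**Figure D4:**
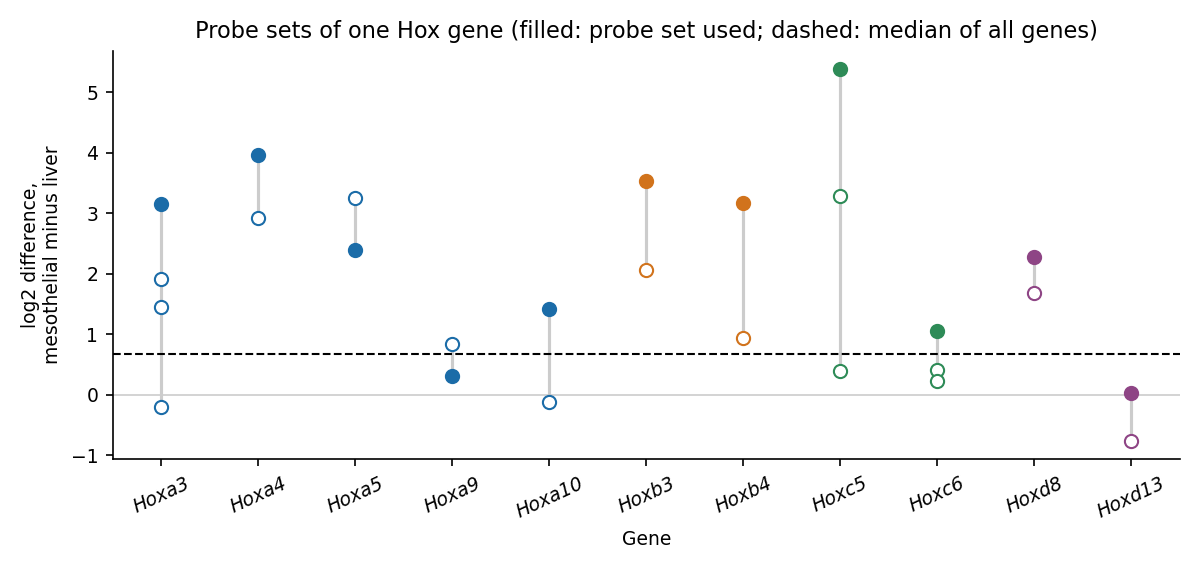
Log2 difference (mesothelial minus liver) of every probe set of the 11 Hox genes with several probe sets, filled for the one used, with the median of all genes dashed. Hoxc5 spans 0.39 to 5.38 and Hoxa3 spans -0.21 to 3.14, while both probe sets of Hoxa4, Hoxa5, Hoxb3 and Hoxd8 lie above the dashed line.

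Hox proteins bind DNA with partner proteins of the TALE homeodomain class, the Pbx, Meis and Pknox families. Of 8 partner genes measured, 7 were above the floor and 6 were at least 2-fold brighter in mesothelial cells, where 45.8% of all genes above the floor were. Their median was 1.62 (0.96 against the all-gene median). Meis1 read 427.1 against 74.1, 5.76-fold, SD 1.70 over 3 probe sets. Meis2 read 1270 against 221.2, 5.74-fold, SD 0.78 over 4 probe sets. Pknox2 read 128.1 against 23.4, 5.47-fold, SD 1.63 over 2 probe sets, whereas Pknox1, its widely expressed relative, read 299.6 against 261.4. The Meis genes and Pknox2 thus lay on the side of the low-numbered Hox genes.

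Retinoic acid is a known activator of the low-numbered ends of the clusters. Of 14 genes of its synthesis, breakdown, binding and receptors, 10 were above the floor. At least 2-fold brighter in mesothelial cells were 9, where 45.8% of all genes above the floor were. The median of the 14 was 1.51 (0.85 against the all-gene median). The synthesis enzyme Aldh1a2 read 977.0 against 24.8, 39.4-fold, and Aldh1a1 read 180.0 against 22.0, 8.18-fold. Crabp1, a binding protein, read 672.0 against 88.9, 7.56-fold. Cyp26a1, which degrades retinoic acid, had the smallest difference above the floor, at 134.0 against 83.7. Of the receptors, Rarb, itself a retinoic acid target, read 180.1 against 45.9, 3.92-fold, and Rara read 60.0 against 56.0, under the floor on the mesothelial array. The Cdx genes, which activate central Hox genes, and the related ParaHox genes were not above the floor for any of 6 measured, and their median of 0.43 turned negative under median centring. Cdx2 read 36.9 against 23.2, and Cdx1 and Cdx4 were at control level on both arrays.

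Polycomb proteins keep Hox genes silent and trithorax proteins keep them active. Of the 15 Polycomb genes that met the floor, 7 were at least 2-fold brighter in mesothelial cells and none in liver cells, a share close to the 45.8% of all genes, with a median of 0.90 (0.24 against the all-gene median). The 3 that differed most encode members of the PRC1 complex, Phc1 at 514.1 against 63.9, 8.05-fold, Pcgf2 at 231.0 against 43.6, 5.30-fold, and Cbx2 at 208.1 against 59.0, 3.53-fold, SD 1.12 over 2 probe sets. The PRC2 core gene Suz12 read 2368 against 2359. Of 13 trithorax and elongation genes, all above the floor, 3 were at least 2-fold brighter in mesothelial cells, where 45.8% of all genes were. In liver cells 2 were, where 3.86% of all genes were. The median of the 13 was 0.80 (0.14 against the all-gene median). Kmt2a, the histone methyltransferase that maintains Hox expression, read 1250.5 against 651.6, Smarca4 was 2.94-fold and the demethylase gene Kdm6b 2.82-fold brighter in mesothelial cells. Mllt3, an elongation factor subunit, read 751.0 against 2714, 3.61-fold brighter in liver cells, SD 0.80 over 3 probe sets.

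**Figure D5:**
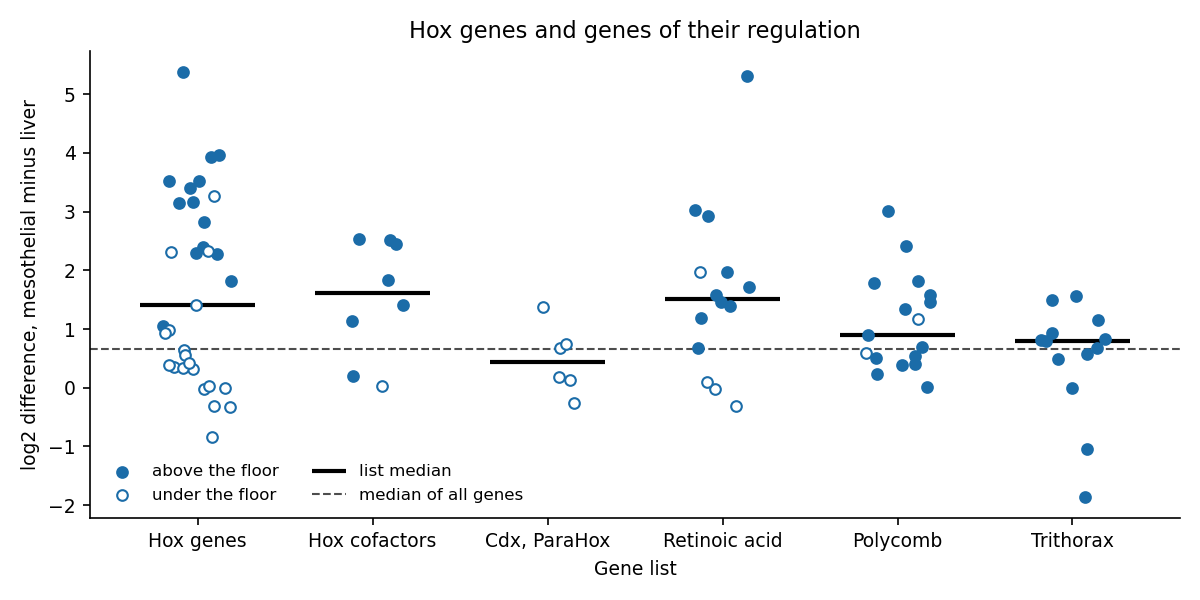
Log2 difference (mesothelial minus liver) of each Hox gene and of each gene in 5 lists of Hox partners and regulators (points, open where under the floor; horizontal spread is for display), with list medians as bars and the median of all genes dashed. The Hox genes spread from -0.84 to 5.38, wider than the partner genes, while the Polycomb and trithorax medians of 0.90 and 0.80 lie close to the dashed line.

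Other families of developmental transcription factors were set beside the Hox genes as a description, and no difference between families was tested. Among all genes, 65.4% met the floor. Of the genes that did, 45.8% passed 2-fold toward mesothelial cells and 3.86% toward liver cells. The all-gene median difference was 0.66. Of 14 T-box genes, 5 met the floor and each was at least 2-fold brighter in mesothelial cells, with a median of 0.51 over the 14. Of 38 Forkhead genes, 19 were above the floor, 11 of them at least 2-fold brighter in mesothelial cells, with a median of 0.71. Of 19 Sox genes, 8 were above the floor, 6 at least 2-fold brighter in mesothelial cells and 1 in liver cells, with a median of 1.38, beside 1.41 for the Hox genes.

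Markers of other trunk tissues are given beside the Hox values, against the 45.8% of all genes above the floor that were at least 2-fold brighter in mesothelial cells. In liver cells 3.86% of all genes above the floor were. The summed intensity of all genes was 12423310 against 7539085, so it was itself higher on the mesothelial array. Each sum is led by its brightest probe sets. Of 14 muscle markers, 11 were above the floor, 8 at least 2-fold brighter in mesothelial cells and 1 in liver cells, with a summed intensity of 4234 against 1089 and Myf6 at control level. Among them Pax7, of muscle progenitors, read 211.4 against 15.6, SD 1.70 over 2 probe sets, and Myf5 read 105.7 against 11.4. Acta1 went the other way, at 22.7 against 67.4. Of 12 limb and body wall mesenchyme markers, 3 met the floor and each was at least 2-fold brighter in mesothelial cells. Among them was Prrx1 at 197.4 against 30.6, SD 1.29 over 6 probe sets. The summed intensity of the 12 was 1107 against 325.0, with Tbx4, Lmx1b and Alx4 at control level on the mesothelial array. Of 11 kidney and gonad markers, 2 were above the floor. Ret was at least 2-fold brighter in mesothelial cells, at 79.9 against 15.5, SD 1.73 over 2 probe sets. Sall1, at 217.9 against 143.4, was not. The summed intensity of the 11 was 527.9 against 281.6, with Pax8, Gdnf, Nr5a1 and Emx2 at control level on the mesothelial array. Of 12 gut markers, 4 met the floor and each was at least 2-fold brighter in mesothelial cells. The largest difference was that of Foxf1, at 1775.6 against 205.4, SD 0.98 over 2 probe sets, followed by Barx1 at 148.7 against 48.3. The summed intensity of the 12 was 2655 against 633.8, with Cdx1 and Nkx3-2 at control level on the mesothelial array. Of 11 neural markers, 4 were above the floor. Of the 4, only Map2 was at least 2-fold brighter in mesothelial cells, at 96.1 against 20.1, SD 1.03 over 4 probe sets. Elavl4 lay furthest the other way, at 31.7 against 46.0, SD 1.21 over 3 probe sets. The summed intensity of the 11 was 645.7 against 438.9, with Tubb3 and Neurod1 at control level on the mesothelial array. The part of these markers' cells in the Hox values was not tested. Megakaryocyte markers were at least 2-fold brighter in mesothelial cells for 10 of 10, with a summed intensity of 35233 against 10189. Erythroid markers were at least 2-fold brighter in liver cells for 6 of 10, at 16199 against 39615 in sum, and their regulator Klf1 read 2494 against 2899. Hepatoblast markers were at least 2-fold brighter in mesothelial cells for 3 of 10, at 85679 against 57594 in sum, and endothelial markers for 3 of 11 above the floor, at 3433 against 1910.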

How the data were processed

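The platform was the Mouse Genome 430 2.0 GeneChip, with 1 array each for mesothelial and liver cells, from 20 ng of total RNA amplified before labelling, per the labels' protocols. The authors deposited 1 intensity per probe set and array, linear to judge by its range. RMA and Partek appear in the submitters' processing notes without role or order, and how the arrays were scaled is not stated in any source used here. Depth has no equivalent here, and the number of arrays limits the precision.

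Log2 was taken first. Of 45101 probe sets, 34958 carry 1 gene symbol in the platform annotation, 932 several, and only the first were used; 34754 matched a gene ID in RefSeq for GRCm38.p6. Each gene is represented by its brightest probe set (mean log2 over both arrays). The counting step was tested on simulated data. Members and gene lists were chosen with earlier results of these data known. All members are named, as are Pdpn, Wt1, Alb and Klf1. In each list the plan was to name up to 3 genes that differ most and the one furthest the other way. The cell type marker lists name only some of these. Some others, such as Rara and Kmt2a, were named after their values were seen. Alternatives were another choice of probe set, other scalings, floors and thresholds, and low values set to the control level. A correlation of paralogue number with level was planned and is not given, since levels of different probe sets are not comparable. Analysis used Python 3.11.15, pandas 2.3.3, NumPy 2.4.6, SciPy 1.17.1 and matplotlib 3.10.9.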

Additional observations from a re-analysis of the deposited data

Results flagged for a closer look

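Probe sets in the Hox clusters that the rule left out, because they name several genes or an antisense transcript, were read against the control level of 16.2 on the mesothelial array and 10.5 on the liver array. One of the probe sets for Hoxd3os1, an antisense transcript of the Hoxd3 region, read 33.9 on the mesothelial array and 16.0 on the liver array, above the control level on both. The probe set annotated to both Hoxb8 and Hoxb7 read 20.5 in mesothelial cells, above the control level there, and 5.1 in liver cells, below it. The other left-out probe sets, for Hoxa11os, Hoxb5os and Hoxd4 with Hoxd3, were at or below the control level on both arrays.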

How the results depend on the processing

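The 14 Hox genes at least 2-fold brighter in mesothelial cells were 12 to 14 under the alternatives on probe sets, scaling, low values and the 4-fold threshold, and all of those were among the 14. Hoxc6 was lost under median centring, quantile normalization and reference gene centring, Hoxd8, still at 1.68 but under the floor, without cross-hybridising probe sets, and both with the median over probe sets. With a floor at the 75th percentile 6 Hox genes were above the floor and all 6 passed 2-fold. With no floor all 33 were counted as above it and 18 passed, within 1.5 times of the main count. No Hox gene was at least 2-fold brighter in liver cells under any alternative run, and no difference of the 14 genes changed sign. The Hox median ran from 0.75 to 1.41, and rho with paralogue number from -0.69 to -0.62. Against the all-gene median of the same setting, the Hox median was 0.75 in the main setting and 0.99 under quantile normalization. It fell to 0.42 with the median over probe sets and to 0.40 without cross-hybridising probe sets. The largest shifts of single genes came from the choice of probe set, with Hoxc5 at 3.28 and Hoxa3 at 1.67 by the median. Median centring moved the median of all genes from 0.66 to 0.03. Quantile normalization lowered the medians of the partner and retinoic acid lists to 0.91 and 0.76, and those of the Polycomb, trithorax and blood progenitor lists, 0.90, 0.80 and 0.77 as deposited, to 0.16, 0.0004 and 0.02. Where a value is at or below the control level, a difference is only a bound or has no order. No paired analysis was possible because each group had 1 array and the labels give no replicate numbers.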

Other observations

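The nearest measured protein-coding genes at each end of the Hox clusters, 2 per end by RefSeq gene order, were read as neighbours; this set was added after the data were seen. Of 16 such genes, 11 were above the floor. Of the 11, 5 were at least 2-fold brighter in mesothelial cells, near the 45.8% of all genes above the floor, and none in liver cells. The median difference of the 16 was 0.67, beside 0.66 for all genes. Next to the low-numbered ends, Skap2 beside Hoxa, an adaptor protein gene of blood cells, read 910.1 against 328.8, Smug1 beside Hoxc, a DNA repair enzyme gene, read 386.8 against 136.8, and Mtx2 beside Hoxd, a mitochondrial import gene, read 639.5 against 559.3. Skap1 beside Hoxb, an adaptor gene of T cells, read 19.3 against 15.2. At the high-numbered ends, the homeobox genes Evx1 beside Hoxa and Evx2 beside Hoxd read 17.6 against 12.8 and 30.0 against 24.1, both under the floor, and Calcoco1 beside Hoxc, a coactivator gene, read 513.9 against 123.1, the largest difference of the 16 at 2.06.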
